A study of Mus musculus with 6 samples.

Results

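The results describe CpG methylation at the gene ends of Zbtb46, Abhd16b and Alkbh6 in the right testis of mice. The members are the 151 cytosine positions with at least 10 reads in all 6 libraries that lie in chr2:181369000-181497000 (Zbtb46 and Abhd16b) or chr7:30306700-30316300 (Alkbh6), build GRCm38, of 952515 such positions on chromosomes 1 to 19, X and Y. The first region held 130 members of 1012 listed positions (12.8%) and the second 21 of 167 (12.6%). These genes were picked because their levels had been seen to be lower in hemicastrated mice in these same libraries, so every methylation difference given for them is a description without a test. Reduced representation bisulfite sequencing was applied, in which DNA is cut by MspI at CCGG and short fragments are bisulfite converted and sequenced. Of 6 KM mice, 3 had lost the left testis before puberty (hemicastrated) and 3 had undergone sham surgery at the same time, and the right testis of each was taken at body maturity. No genetic change was stated for either group, the age was not stated, and each library came from 1 mouse. Libraries held 64504011 to 78630942 calls, a call being 1 read at 1 cytosine, and calls on mitochondrial DNA were methylated in 0.478% to 0.617%.

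Methylation of CpG dinucleotides is copied to daughter cells by a maintenance methyltransferase, and CpG-dense promoters are usually kept free of it while gene interiors carry it. A testis is a mixture of germ cells at several stages with Sertoli, Leydig, peritubular and immune cells, whose methylomes differ. In such bulk tissue, a different share of a cell type and a different methylation level within cells cannot be told apart. Zbtb46 encodes a BTB zinc finger transcription factor known as a mark of classical dendritic cells. Abhd16b encodes an alpha/beta hydrolase domain protein related to the lipid hydrolase Abhd16a, and Alkbh6 encodes a member of the AlkB family of iron- and 2-oxoglutarate-dependent dioxygenases.

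Zbtb46 spans chr2:181371009-181493262 on the minus strand, and Abhd16b spans chr2:181493206-181494980 on the plus strand. The pair are thus head to head and overlap by 57 bp. Alkbh6 spans chr7:30308753-30314303 on the plus strand, followed after 513 bp by Syne4 (chr7:30314816-30319045), which encodes a nesprin of the outer nuclear membrane. The 300 bp promoter windows of RefSeq (GRCm38.p6, 250 bases before to 50 after the start) are shown to set the CpG content of the 5′ ends beside the covered 3′ or inner positions. Capitals mark each CG.

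Abhd16b: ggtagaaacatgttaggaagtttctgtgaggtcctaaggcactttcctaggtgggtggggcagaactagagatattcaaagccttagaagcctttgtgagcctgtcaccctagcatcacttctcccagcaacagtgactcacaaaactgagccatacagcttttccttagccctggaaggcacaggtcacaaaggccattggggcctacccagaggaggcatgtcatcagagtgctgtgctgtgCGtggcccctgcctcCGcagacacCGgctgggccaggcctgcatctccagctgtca

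Alkbh6: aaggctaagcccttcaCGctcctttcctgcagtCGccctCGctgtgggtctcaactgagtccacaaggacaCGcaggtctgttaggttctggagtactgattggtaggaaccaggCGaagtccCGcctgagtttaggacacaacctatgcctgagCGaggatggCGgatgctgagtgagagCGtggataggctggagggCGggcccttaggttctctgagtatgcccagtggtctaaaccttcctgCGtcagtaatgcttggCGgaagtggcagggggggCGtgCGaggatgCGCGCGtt

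Zbtb46: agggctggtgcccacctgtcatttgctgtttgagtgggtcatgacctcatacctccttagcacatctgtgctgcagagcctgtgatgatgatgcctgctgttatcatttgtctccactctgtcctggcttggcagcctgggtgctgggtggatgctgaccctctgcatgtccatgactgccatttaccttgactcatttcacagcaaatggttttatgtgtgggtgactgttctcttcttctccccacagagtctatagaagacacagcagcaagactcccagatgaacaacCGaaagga

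The Abhd16b window (chr2:181492956-181493255, plus strand) held 3 CpGs, and the Alkbh6 window (chr7:30308503-30308802, plus strand) held 17. The Zbtb46 window (chr2:181424339-181424638, minus strand), which lies inside the boundaries of that gene, held 1. The median over 32817 such windows was 7, and CG, read on either strand, occurred in 94.6% of them. The MspI motif CCGG, which reads the same on both strands, was found in the Abhd16b window and not in the Alkbh6 or Zbtb46 window, against 52.8% of all windows. No member lay in any of these 3 windows. The covered positions of Abhd16b were thus downstream of its start, and those of Alkbh6 were at the far end of the gene.

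The members fell into 8 runs of covered positions, a run being broken wherever 250 bp or more held no covered position, a spacing chosen after seeing the data. Of the 104 members inside Zbtb46, the 90 in 2 CpG-dense runs between 181458532 and 181460473 were nearly unmethylated, with run means of 0.346% to 1.15% in the 6 libraries. The 60 positions of the first run had 0.482%, 0.646% and 0.569% in hemicastrated and 0.398%, 0.677% and 0.548% in sham libraries. The 30 of the second had 0.999%, 0.346% and 0.387% in hemicastrated and 0.863%, 1.15% and 0.53% in sham libraries. These levels are close to those of mitochondrial DNA in the same libraries. The 14 others were highly methylated. The 8 positions at 181391271 to 181391335 had 95.7%, 96.3% and 95.7% in hemicastrated replicates 1 to 3 and 96.2%, 97.2% and 95.6% in sham replicates 1 to 3. The 6 positions at 181379881 to 181380133, where Zbtb46 overlaps Zgpat, a zinc finger and G-patch gene, had 98.2%, 95.2% and 94.2% against 95.3%, 94.8% and 96.0%. The groups overlapped at each of these runs. Inside Zbtb46, therefore, the group means of the 4 runs differed by no more than 0.49 points in either direction.

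**Figure D1:**
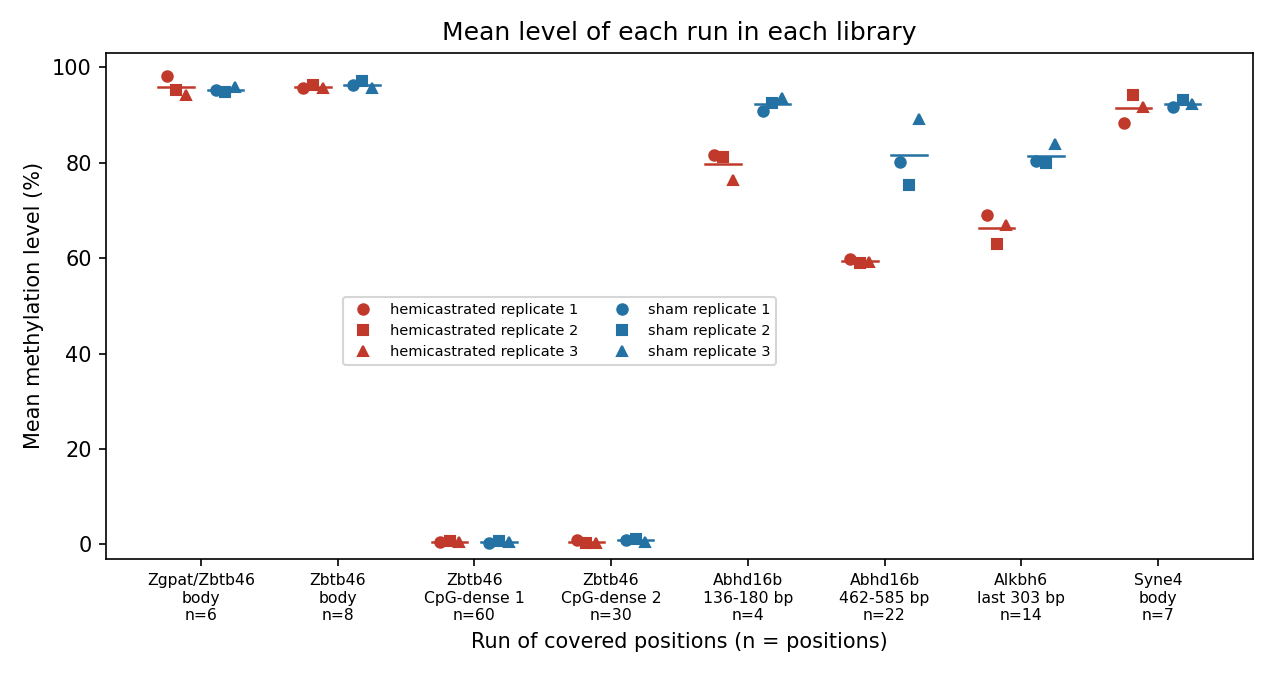
Mean methylation level (%, vertical axis) of each of the 8 runs of covered positions in each library, with hemicastrated mice in red, sham mice in blue, markers for replicates and a bar for each group mean. The 2 Abhd16b runs and the Alkbh6 run show separate groups, while the Zbtb46 and Syne4 runs overlap.

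The lower runs of this region lay inside Abhd16b. The run at 181493668 to 181493791, 22 positions in 124 bp, lay 462 to 585 bp from the start of Abhd16b, 1189 bp before its end and 406 bp or more outside the boundary of Zbtb46. Its mean level was 59.9%, 59.1% and 59.3% in hemicastrated replicates 1 to 3 and 80.2%, 75.3% and 89.2% in sham replicates 1 to 3. Every hemicastrated library was below every sham library, and the sham libraries spread over a wider range. Group means were 59.4% ± 0.434 and 81.6% ± 7.06 (SD, n = 3 each), a difference of -22.2 points, hemicastrated minus sham, with a standard error of 4.09. All 22 positions had a lower hemicastrated mean, by -13.8 to -28.3 points with a median of -22.1. At 20 of the 22 the groups did not overlap, and the same order was found at 2.77% of all 952515 positions. Over both regions, 38 of the 151 members were lower with no overlap. Another 2, both in a CpG-dense run of Zbtb46 near 0%, were higher with no overlap, an order found at 2.41% of all positions. Since the genes were picked on this contrast, nothing is read from these counts.

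The 5 positions with the lowest difference in this gene end were 181493669, 181493734, 181493725, 181493757 and 181493788. At 181493669, on the minus strand, hemicastrated libraries had 72.2%, 56.8% and 60.3% and sham libraries 91.1%, 88.4% and 94.6%, at 36 to 69 reads. The Wilson 95% intervals reached from 40.9% to 84.2% over the hemicastrated and from 78.8% to 98.2% over the sham libraries, so the intervals of the groups met. At 181493725 the levels were 52.8%, 56.1% and 55.2% against 82.5%, 76.8% and 87.7%. Here no hemicastrated library was within 20 points of a sham library. Whether PCR copies of 1 molecule were removed was not stated. The intervals take every read as independent and hold counting error and nothing else.

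A smaller run of 4 positions at 181493342 to 181493386 lay 136 to 180 bp from the start of Abhd16b. Its levels were 81.7%, 81.3% and 76.5% in hemicastrated and 91.0%, 92.5% and 93.6% in sham libraries, at 12 to 76 reads per position. The groups did not overlap in the run mean (79.8% ± 2.91 against 92.3% ± 1.34, SD, n = 3 each, difference -12.5 points with a standard error of 1.85). Of its 4 positions, 2 kept the groups apart. Both plus-strand positions of this run were close to the coverage minimum, with 12 reads in the thinnest library. At 181493342 the levels were 75%, 60% and 63.6% against 75%, 90% and 85.7%, which touch. At 181493385 they were 75%, 85.7% and 84.8% against 95.8%, 100% and 96.4%, which do not overlap. Just outside the minimum, position 181409829 in Zbtb46, with 8 reads in its thinnest library, had 76.9%, 100% and 87.0% against 100%, 85.7% and 87.5%.

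**Figure D2:**
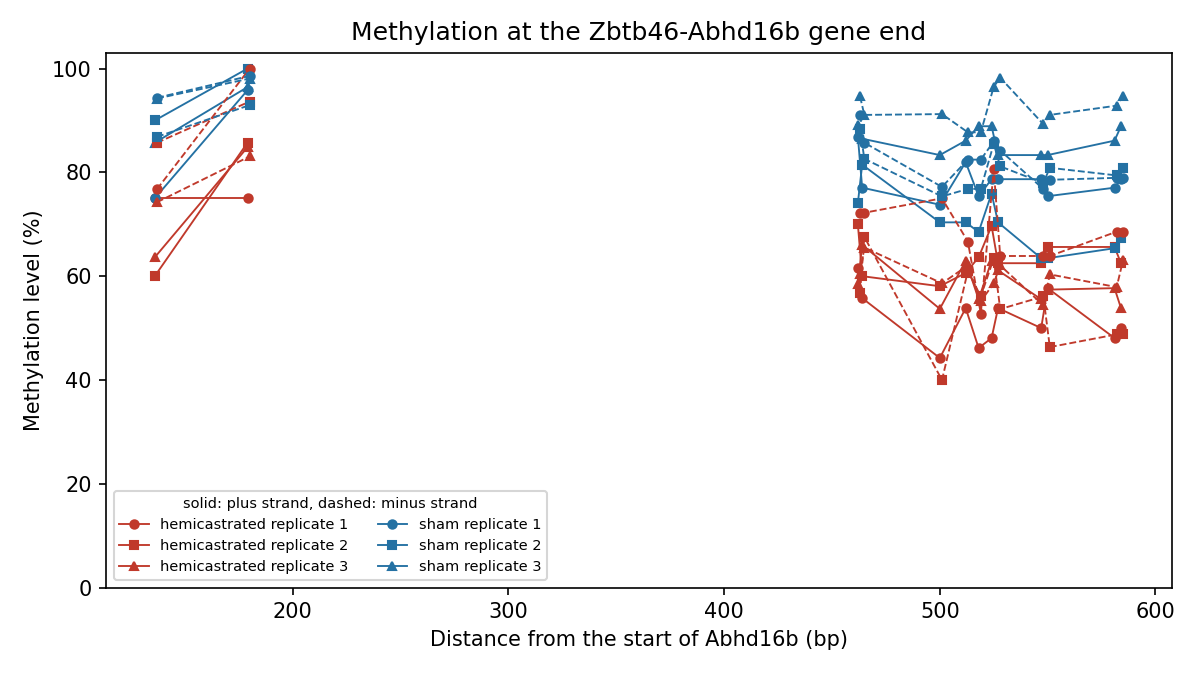
Methylation level (%, vertical axis) of each covered position against its distance in bp from the start of Abhd16b, with 1 line per library and strand (red hemicastrated, blue sham, solid plus strand, dashed minus strand). In the run 462 to 585 bp from the start, hemicastrated lines lie between 40.0% and 80.6% and sham lines between 63.5% and 98.2%.

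The 2 strands of this run were then taken apart. The 22 positions are 11 on each strand, and within a library the coverage differed by at most 3 reads among plus-strand positions and by at most 4 among minus-strand positions, so each strand's positions are largely read from the same reads. On the plus strand the levels were 51.7%, 63.7% and 58.7% in hemicastrated and 78.4%, 70.1% and 86.2% in sham libraries. On the minus strand they were 68.0%, 54.4% and 59.8% against 82.0%, 80.5% and 92.3%. The groups stayed apart on each strand, with differences of -20.2 and -24.2 points. The hemicastrated SD was 6.003 on the plus and 6.85 on the minus strand, so the SD of 0.434 over both strands was smaller than either strand's. The minus-strand level exceeded the plus-strand level by 16.3 points in hemicastrated replicate 1, while in replicate 2 it was -9.30 points relative to the plus strand. In the sham libraries the minus strand was higher by 3.64, 10.5 and 6.10 points.

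At Alkbh6 the covered positions were 14 in 87 bp, from 30314000 to 30314086, which is 303 to 217 bp before the end of the gene, 5247 bp from its start and 730 bp before the start of Syne4. Their mean level was 69.0%, 62.9% and 66.9% in hemicastrated replicates 1 to 3 and 80.4%, 80.0% and 83.9% in sham replicates 1 to 3. The groups did not overlap. Group means were 66.3% ± 3.07 and 81.4% ± 2.15 (SD, n = 3 each), a difference of -15.1 points with a standard error of 2.16. This run was covered more deeply than that of Abhd16b, by 84 to 176 reads per position and library against 30 to 69. All 14 positions had a lower hemicastrated mean, by -8.87 to -21.8 points, and 13 of them kept the groups apart.

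The 5 positions with the lowest difference were 30314027, 30314086, 30314085, 30314028 and 30314052. At 30314027, on the plus strand, the levels were 53.6%, 40.7% and 55.0% in hemicastrated and 67.3%, 71.3% and 76.0% in sham libraries. The Wilson 95% intervals reached from 30.9% to 64.4% over the hemicastrated and from 57.7% to 83.3% over the sham libraries, so those of the groups met here too. At 30314086 the levels were 60.3%, 58.2% and 58.4% against 77.0%, 78.7% and 83.2%. The position means ran from 49.8% to 77.8% in hemicastrated and from 71.5% to 87.2% in sham mice, and the same positions were high or low in both groups (Pearson's r 0.952 across the 14 positions, which share reads). Across the 22 positions of the Abhd16b run, r was 0.645, with hemicastrated means of 52.0% to 68.4% and sham means of 74.1% to 91.4%. Both values of r are descriptions across positions.

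**Figure D3:**
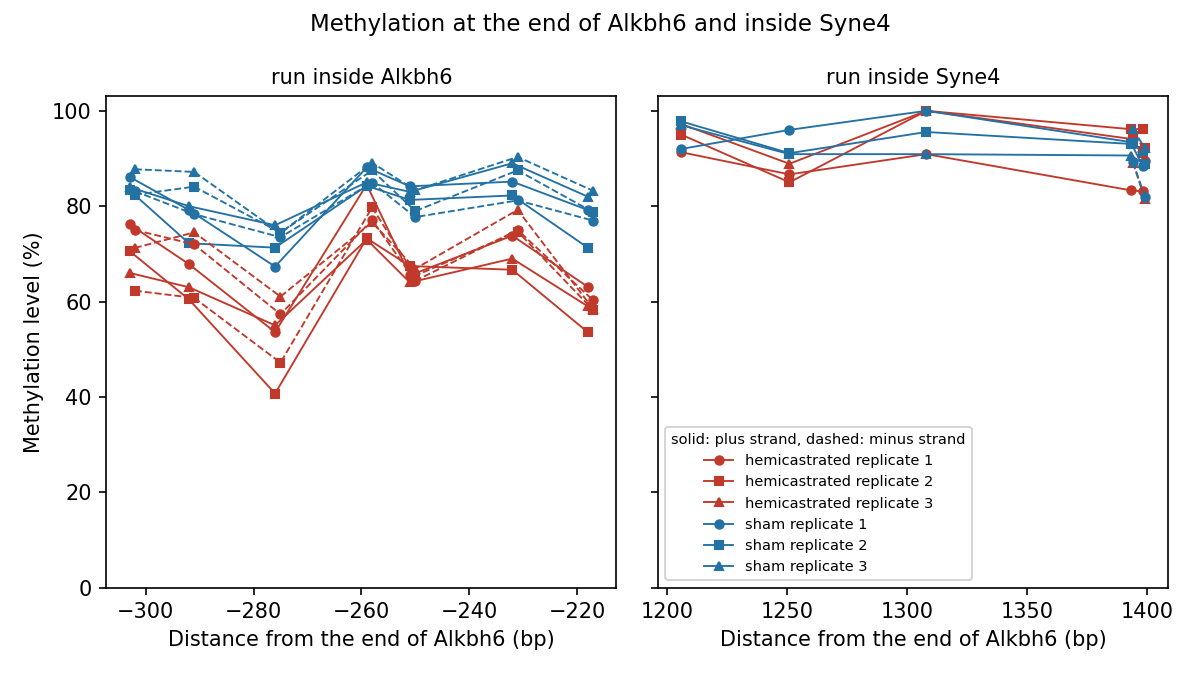
Methylation level (%, vertical axis) of each covered position against its distance in bp from the end of Alkbh6, for the run inside Alkbh6 (left) and the run inside Syne4 (right), with 1 line per library and strand (red hemicastrated, blue sham, solid plus strand, dashed minus strand). The 14 Alkbh6 positions follow 1 shape in both groups, with the hemicastrated lines lower, and the groups overlap at 6 of the 7 Syne4 positions.

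The strands of the Alkbh6 run gave nearly the same picture. The 7 plus-strand positions had 69.2%, 61.8% and 64.1% against 81.3%, 78.0% and 82.7%. The 7 minus-strand positions had 68.7%, 64.0% and 69.7% against 79.4%, 81.9% and 85.0%. The differences were -15.6 and -14.6 points, and no library's strands differed by more than 5.57 points, compared with up to 16.3 in the 22-position run of Abhd16b and 16.8 in its 4-position run. Of the libraries, hemicastrated replicate 1 was the highest of its group on the plus strand and replicate 3 on the minus strand.

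**Figure D4:**
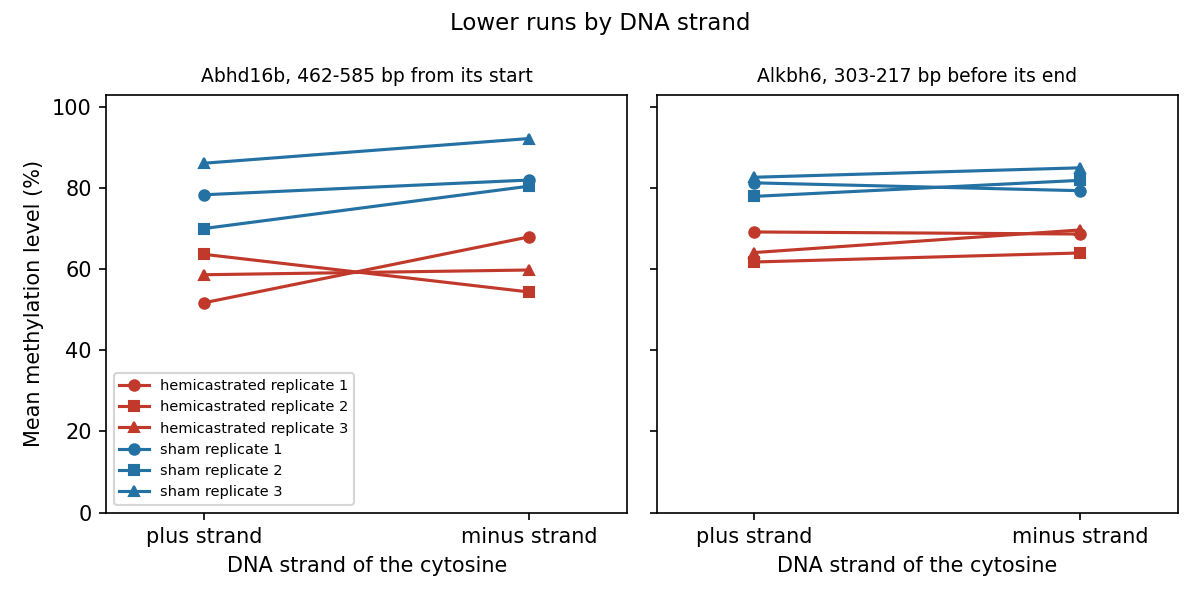
Mean methylation level (%, vertical axis) on the plus and minus strand of the lower Abhd16b run (left) and the Alkbh6 run (right), 1 line per library, red hemicastrated and blue sham. At Abhd16b the 3 hemicastrated lines cross near 59%, from 51.7% to 63.7% on the plus and from 54.4% to 68.0% on the minus strand, and at Alkbh6 the lines are nearly level.

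The reach of the lower levels was followed in 500 bp tiles outward from the lowest tile until a covered tile whose groups overlapped. The regions held 11 tiles with a covered position. In 4 of them every hemicastrated library was below every sham library, an order found in 5.05% of all 107381 covered tiles. Of the 9 member tiles with at least 3 covered positions, 3 had it, against 4.99% of all such tiles. Around Abhd16b the lower stretch covered 2 tiles and 450 bp, from 181493342 to 181493791. On the Zbtb46 side the next covered position was 32869 bp away, in the nearly unmethylated CpG-dense run, and that tile's groups overlapped. Without hemicastrated replicate 1 they did not, and the stretch then measured 33739 bp by taking in that tile, whose levels were 0.346% to 1.15%. On the other side no covered position remained in the region, and the next covered tile began 23001 bp beyond the region's end with 0.39% and 0.41% methylation in the group means. The stretch thus ended at the limits of the covered DNA, not at a covered methylated position with overlapping groups.

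Around Alkbh6 the lower stretch covered 87 bp in 2 tiles. Its first tile held a single position, 30314000, with 76.2%, 70.6% and 66.0% against 86.1%, 83.3% and 84.0%. The second held 13 positions with 68.4%, 62.3% and 67.0% against 79.9%, 79.7% and 83.9%. Downstream, 1423 bp on, the 7 positions at 30315509 to 30315702 inside Syne4 had 88.4%, 94.2% and 91.7% against 91.6%, 93.1% and 92.4%. The run means overlapped, with a difference of -0.90 points. The exception within this run was 30315554, with 86.7%, 85% and 88.9% against 96%, 91.1% and 90.9%. By the tile rule, the lower stretch ended somewhere in the 1423 bp between. Upstream the next covered tile ended 25700 bp before the region and was at 0% in all 6 libraries. The measure was not stable on this side. With a minimum of 20 reads, with tiles of at least 3 positions or with 1000 bp tiles, the stretch came to 34071 bp by taking in a nearly unmethylated tile (0.244% against 0.433%).

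Positions with fewer than 10 reads in some library, which are no members, were used to look into these gaps as summed counts. They list different cytosines in different libraries, so they are descriptions only. Wilson intervals of such sums take every call as independent and hold no spread between mice, so groups are not compared by them. The thin positions of Abhd16b, 49 in number, were methylated in 42 of 62, 30 of 39 and 51 of 75 calls in hemicastrated replicates 1 to 3 and in 52 of 70, 44 of 62 and 64 of 88 calls in sham replicates 1 to 3. The sums were 123 of 176 (69.9%, Wilson 95% interval 62.7% to 76.2%) and 160 of 220 (72.7%, 66.5% to 78.2%). The separation seen at the covered positions of this gene was thus not seen in its thin positions at this depth. In the tile of the lower run the thin positions gave 61.9% and 67.6%, and in the tile of the 4-position run 85.2% and 84.6%.

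Thin positions in the last 1000 bp of Alkbh6 were methylated in 26 of 49, 19 of 38 and 22 of 55 calls in hemicastrated and in 21 of 23, 11 of 14 and 7 of 8 calls in sham libraries. The sums were 67 of 142 (47.2%, Wilson 39.2% to 55.4%) and 39 of 45 (86.7%, 73.8% to 93.7%). Of the 142 hemicastrated calls, 90 lay past the covered run. There, up to the start of Syne4, the methylated calls were 19 of 36, 9 of 27 and 1 of 27 in hemicastrated libraries, while sham replicates 1 to 3 had 0, 9 and 1 calls, 9 of them methylated. That stretch thus rests on a single sham library, and its hemicastrated shares differ widely among the 3 mice. Before the covered run, in the 500 bp tile from 30313501, they were 1 of 7, 10 of 11 and 21 of 28 against 20 of 22, 2 of 5 and 6 of 6, so the groups overlapped there. In the first 1000 bp of Alkbh6, 0 of 99 calls in hemicastrated and 1 of 31 calls in sham libraries were methylated. The start of Alkbh6 was thus nearly unmethylated in hemicastrated libraries, while its 31 sham calls had a Wilson interval of 0.572% to 16.2%. The covered run at the end of Alkbh6 was at 62.9% or higher in every library.

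The promoter windows shown above had few calls. In that of Abhd16b, 21 of 21 calls in hemicastrated and 5 of 6 in sham libraries were methylated. In that of Alkbh6, 0 of 19 calls were methylated, all from hemicastrated replicate 3, which allows a level of up to 15.8%, or 3 counts of the 19. In the Zbtb46 window a single call was made, and it was methylated. Past the end of Abhd16b towards Tpd52l2, 2162 bp on, 0 of 35 hemicastrated and 1 of 17 sham calls were methylated. Replicates 1 to 3 gave 10, 0 and 25 of these calls in hemicastrated and 6, 1 and 10 in sham mice. The Wilson intervals were 0% to 9.89% and 1.05% to 27.0%. Levels thus fell from within Abhd16b towards Tpd52l2 in both groups, but the sham calls were too few to call that stretch nearly unmethylated.

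Set against other genes, both gene ends were among the more methylated. A gene end was taken as 1000 bp on each side of whichever boundary of the gene had more listed positions, and 16624 of 49939 genes had one with at least 3 covered positions. The median gene end was at 0.611%. The boundary rule takes 5′ and 3′ ends alike. For Alkbh6 it took the 3′ end, and the end shared by Zbtb46 and Abhd16b is the 5′ boundary of both genes. All 26 covered positions of that shared end lie inside Abhd16b and none inside Zbtb46. The RefSeq promoter window of Zbtb46 lies elsewhere, at chr2:181424339-181424638, and holds no covered position. The shared end thus gives no level for that promoter. The end shared by Zbtb46 and Abhd16b, 26 positions with a mean of 72.9% over the 6 libraries, stood at percentile 90.02, and that of Alkbh6, with 73.8%, at percentile 90.14. Group means of the former were 62.5% ± 0.673 and 83.2% ± 6.10 (SD, n = 3 each), a difference of -20.7 points with a standard error of 3.54. The window of the Syne4 start holds the 14 Alkbh6 positions beside its own 7, and its levels were 75.5%, 73.3% and 75.2% against 84.1%, 84.3% and 86.7%. Across all gene ends, 660 (3.97%) were lower with no overlap and 940 higher, and the median difference was 0.03 points.

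A fit over all tiles with at least 3 covered positions gave the background for these descriptions. edgeR's quasi-likelihood test with Benjamini-Hochberg adjustment called 0 of 71149 tiles (0%) at an adjusted p below 0.05. The smallest adjusted p was 0.108, and 3039 tiles (4.27%) had an unadjusted p below 0.05. limma on log2 ratios called 0 as well, with 3549 tiles below 0.05 unadjusted. The fit held 9 member tiles, and nothing is read from their own p, since the genes were picked on this contrast. Among the 14489 tiles with a mean level of 50% to 90%, where these gene ends lie, 6.92% were lower with no overlap.

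The ends of most other genes of the same families were nearly unmethylated, as were 12948 of all 16624 measured gene ends, which were below 5%. Of 8 AlkB family genes other than Alkbh6, such as Alkbh5, a demethylase of RNA, 5 had a measured gene end. All 5 were below 5% methylated, the hemicastrated mean was lower in 3 and higher in 2, and the groups overlapped in each. Each of the 5 was read at its 5′ end and Alkbh6 at its 3′ end, so like ends were not compared. Of 20 other alpha/beta hydrolase genes 16 were measured, 14 of them below 5%. Abhd12b, read at its 3′ end, stood at 97.3% and Abhd4 at 19.12%. All others of the 16 with a stated strand were read at their 5′ ends. The median difference of the 16 was 0.03 points, as over all gene ends. Only Abhd11 of these 16 was lower with no overlap, at 0.171% against 0.999%. Of 16 dendritic cell and BTB zinc finger factor genes 14 were measured, and all were below 5%, with 6 lower and 8 higher means. Among them Zbtb32, read at its 3′ end, was at 4.68%. Relb, an NF-kB subunit, was the single one of the 14 without overlap, at 2.29% in hemicastrated and 1.60% in sham mice. These lists were chosen with earlier results of these data known.

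The gene ends whose 6 library levels ran most like those of the shared Zbtb46 and Abhd16b end were Gm43915 (Pearson's r 0.982), Syne4 (0.974) and Gm48200 (0.973), among 1540 gene ends with a range of at least 10 points. For Alkbh6 they were Gm35135 (0.975), Tnnc2 (0.973), which encodes a troponin C of skeletal muscle, and Gm43915 (0.971). Gm43915 was thus on both lists, with 30.6%, 27.8% and 29.0% in hemicastrated and 36.5%, 34.3% and 39.7% in sham libraries. Tnnc2, named for Alkbh6 alone, had 27.0%, 21.4% and 21.3% against 39.7%, 34.9% and 40.6%. Likeness over 6 libraries is a description here, and it is high for gene ends whose groups are separate in the same direction. The Syne4 window holds the 14 Alkbh6 positions, and the mean of its own 7 positions overlapped between groups.

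Each member had to have 10 reads in every library, but the difference in coverage between groups was not used to choose the genes. It was compared by exact two-sided permutation tests, in which 3 against 3 cannot give a p below 0.1. Members of the Zbtb46 and Abhd16b region took 122.8, 126.9 and 123.3 calls per 1000000 calls of the library in hemicastrated and 137.1, 128.6 and 133.3 in sham libraries. The groups did not overlap, and the difference of -8.65 had the smallest possible p of 0.1. In the lower Abhd16b run alone the values were 13.3, 11.4 and 16.0 against 16.6, 17.1 and 15.8, which overlap (exact p = 0.2). The Alkbh6 region had 29.2, 29.2 and 28.8 against 28.7, 31.1 and 33.6 (exact p = 0.4), and its lower run had 23.2, 24.6 and 23.2 against 24.0, 25.2 and 27.7 (exact p = 0.2). With every listed position of the regions counted, members or not, the differences were -8.13 (exact p = 0.1) and -1.04 (exact p = 0.7). Adjusted over the 7 exact tests of member coverage and cell marks, every p was 0.35 or higher. The part of coverage in the methylation differences was not tested.

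Marks that differ between germ and somatic cells were read at other genes of the same libraries. Imprinted genes were read within 5000 bp of the boundary with more listed positions, and germline genes within 1000 bp of it. At 9 of 11 maternally methylated imprinted genes, which male germ cells leave unmethylated, the mean was 12.2%, 10.8% and 8.73% in hemicastrated and 8.504%, 7.57% and 8.82% in sham libraries (exact permutation p = 0.2). At 8 of 12 germline genes, methylated in most somatic cells, it was 24.6%, 20.1% and 20.3% against 20.6%, 20.02% and 16.4% (exact permutation p = 0.4). The groups overlapped in both, and hemicastrated replicate 1 was the highest library in each. Of the maternally methylated genes, Grb10 (0.831% to 1.34%) and Inpp5f (0.262% to 0.811%) were nearly unmethylated in every library, so little of the mark was read there. Mest had the largest difference of the 9, 13.0 points, with 20.2%, 26.0% and 13.4% against 3.51%, 0.483% and 16.7%, which overlap. Kcnq1ot1 and Inpp5f had lower hemicastrated means. The mean of this list thus leans on Mest. Of the paternally methylated pair, H19 was at 81.8% to 95.0% and the measured end of Rasgrf1 at 0.251% to 1.75%, with a pair mean that did not separate the groups (exact permutation p = 0.5). The part of the cell mixture in the lower levels of Abhd16b and Alkbh6 was not tested.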

How the data were processed

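Right testes of 3 hemicastrated and 3 sham-operated KM mice were profiled, with 1 library per mouse. Per the labels' protocols, MspI fragments of 40 to 220 bp were bisulfite converted, PCR amplified and run on an Illumina GAII. TopHat2 2.0.11, Bismark and GRCm38 are named in the submitters' processing notes. Not given in the sources used here were the Bismark version, trimming and duplicate removal. Per cytosine position and library, the authors deposited the methylated and the unmethylated count of reads, with no normalization, and the methylation level in percent, which is the methylated count over both.

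Each position was treated as 1 site, and the files name no strand or context. The RefSeq promoter sequences (GRCm38.p6) held a CpG cytosine at 144248 of 144258 covered positions (99.99%), and their entries gave the strand of each gene. The strand of a cytosine was inferred from neighbouring listed positions, the lower of a pair being taken as the plus and the higher as the minus strand of 1 CpG. Genes came from the RefSeq table of the same assembly, matched by symbol. Levels of a run, tile or gene end are unweighted means over positions with at least 10 reads in all 6 libraries. Summed counts of 500 bp tiles were fitted with edgeR 4.0.16 (R 4.3.3, quasi-likelihood, 1 column for each library and the methylation by group interaction), and with limma 3.58.1 on log2 ratios with 1 added to each count. The fit was also run on simulated data, and the share of shifted tiles that it called is not given here. The absence of called tiles is thus not read as an absence of differences. Intervals are Wilson 95% intervals. The members, gene lists and tests were chosen with earlier results of these data known. Named were the genes in or next to the regions, the counts and extreme members of the 3 lists, the 3 gene ends most like each window, and the 5 positions with the lowest difference in each window.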

Additional observations from a re-analysis of the deposited data

How the results depend on the processing

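The differences at both gene ends kept their sign under every coverage minimum, window, weighting, merging and single-strand alternative tried. These alternatives reuse largely the same positions of genes picked on this contrast, so nothing is read from the sign. As the groups were separate at both gene ends, leaving out a library could not change it. Leaving out single libraries gave -23.3 to -17.4 points at Zbtb46 and Abhd16b and -16.5 to -13.5 at Alkbh6. With 2000 bp either side, the Alkbh6 window took in the Syne4 positions and gave -10.4 points. The reach around Abhd16b was 449 or 450 bp in all alternatives except without hemicastrated replicate 1, where it rose to 33739 bp by joining a nearly unmethylated Zbtb46 tile. The reach around Alkbh6 was 87 bp without any 1 library, but 34071 bp with a minimum of 20 reads, with tiles of at least 3 positions or with 1000 bp tiles, when a nearly unmethylated tile (0.244% against 0.433%) became the next one upstream. With neighbouring positions merged into 1 CpG, 14 of 69 and 8 of 12 merged CpGs were lower with no overlap. The counts of single positions were 24 of 130 and 14 of 21. The share over all merged CpGs was not computed, so nothing is read from the merged counts. Without single libraries the counts of single positions were 26 to 28 and 14 to 15. Leaving out a library cannot lower such a count, so nothing is read from this either. The coverage differences ran from -10.8 to -6.61 and from -3.28 to -0.801 calls per 1000000. Alternatives chosen after seeing the data moved the 4-position tile of Abhd16b to -8.61 points (minimum of 20 reads) and -10.0 (summed counts).

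No alternative called any of the tiles. Same-numbered mice of the 2 groups deviated together weakly (r 0.0226 to 0.0273 across tiles), while differently numbered mice gave r of -0.0163 to -0.00837. The numbers were not taken as pairs in the main fit, and what same-numbered mice share was not tested. With the replicate block edgeR called 0 tiles, with a smallest adjusted p of 0.439. Depth limits single positions most, at 12 to 76 reads in the 4-position run, and positions of 1 strand share reads.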
